A study of Mus musculus with 16 samples.

Results

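The levels of 48 genes of Wnt signaling were examined in RNA sequencing libraries of endothelial cells (ECs) sorted from mouse bone. They are 19 Wnt ligands, the 10 Frizzled (Fzd) receptors, the co-receptors Lrp5 and Lrp6, the 4 R-spondins (Rspo), the R-spondin receptors Lgr4 and Lgr5, the ubiquitin ligases Znrf3 and Rnf43, 8 secreted inhibitors of the Sfrp and Dkk families, and Axin2, a common target gene. The rule for members uses gene symbols and no measured value. All 48 are among the 38926 gene symbols listed for the metaphyseal and marrow libraries, the 21603 Ensembl gene IDs listed for the Yap1/Taz libraries, of which 21375 matched a symbol, and the 38926 entries listed for the Lats2 libraries, 27 of which are dates in place of symbols. The inhibitor also known as Sfrp3 is listed under the symbol Frzb and is therefore given among the other genes of the pathway.

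The study asked how ECs of different bone regions differ, and how bone ECs change when the co-activators Yap1 and Taz at the end of the Hippo pathway, or the kinase Lats2 that restrains them, are deleted in ECs. The 16 libraries form 6 groups, all from bone of mice on a C57BL/6 background. In the first comparison, 3 libraries hold ECs of the metaphysis (mpECs) and 3 hold ECs of the marrow cavity in the diaphysis (bmECs). These mice are labelled wildtype, while the methods describe 3-week-old reporter mice, Cdh5-mTnG, in which sorted ECs carry a red membrane protein and green nuclei.

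In the second comparison, all mice carried the floxed alleles Yap1flx/flx and Wwtr1flx/flx, where Wwtr1 is the gene that encodes Taz, and were at postnatal day 21. The 3 control libraries came from Cdh5CreERT2 negative mice and the 3 libraries labelled Yap1/Taz iΔEC from Cdh5CreERT2 positive mice. In the third comparison, all mice carried Lats2flx/flx, with 2 libraries from Cdh5CreERT2 negative controls and 2 from Cdh5CreERT2 positive mice, labelled Lats2 iΔEC. The labels give no age for these mice, and the methods give 3 weeks. Cdh5CreERT2 is a Cre recombinase under the promoter of the endothelial cadherin gene Cdh5 that acts after tamoxifen, so deletion is limited to cells that express Cdh5 when the drug is given. The study describes tamoxifen injections in pups by an earlier or a later course, with the later one used for Yap1/Taz mice kept to day 21, and Cre-negative littermates as controls, so that the controls share the floxed alleles. The methods state biological triplicates, but which animal each library came from is not given in the sources used here, and the p-values given here measure the spread between these libraries.

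Values are FPKM, the fragments per kilobase of gene length scaled to library size, so levels can be set side by side between genes. The 3 tables were normalized separately, and tests were made only within each. Reads recovered from the FPKM values summed to 11122600 to 14756300 in the mpEC and bmEC libraries, 4889940 to 7162960 in the Yap1/Taz libraries and 4732860 to 7074160 in the Lats2 libraries. A fold change is the difference of the group means of log2(FPKM + 1), which understates the change of low genes. It was tested with limma over every gene with a mean of at least 1 FPKM in that comparison, and a gene passed at an adjusted p-value under 0.05.

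Wnt proteins are secreted lipid-modified ligands that bind a Frizzled receptor and, in the canonical pathway, the co-receptors Lrp5 or Lrp6, after which β-catenin is spared from degradation and acts in the nucleus with factors of the TCF and LEF family. R-spondins bound to Lgr receptors keep Znrf3 and Rnf43 from removing Frizzled receptors, whereas Dkk proteins block the co-receptors and Sfrp proteins bind Wnt ligands outside the cell. In bone, Wnt signaling is a known driver of osteoblast formation, and in the retina Fzd4 with Lrp5 and Tspan12 is needed for vessel growth.

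The targeted genes were checked first. Yap1 was at 1.07, 1.62 and 0.995 FPKM in the 3 Yap1/Taz controls and at 1.43, 1.03 and 0.989 FPKM in the libraries labelled Yap1/Taz iΔEC. The groups overlapped. Wwtr1 was at 10, 9.88 and 10.3 FPKM in the controls and at 15.3, 19.6 and 19.5 FPKM in the libraries labelled Yap1/Taz iΔEC, all above the controls (log2 fold change 0.78, limma adjusted p = 0.0272). Since Wwtr1 was higher and Yap1 did not separate the groups (log2 fold change -0.044, limma adjusted p = 0.934), these libraries are named by their label throughout. Lats2 was at 23.4 and 24 FPKM in the Lats2 controls and at 19.2 and 19.2 FPKM in the libraries labelled Lats2 iΔEC, lower without overlap but short of the threshold (log2 fold change -0.29, limma adjusted p = 0.125). A value per gene also counts exons outside the deleted part, whose extent is not given in the sources used here. Of 10 endothelial markers, all 10 were measured above the filter in every comparison, with summed levels of 1175 to 1509 FPKM in the mpEC and bmEC libraries, 596 to 807 FPKM in the Yap1/Taz libraries and 2261 to 2464 FPKM in the Lats2 libraries. Between mpECs and bmECs 3 of these markers rose and 3 fell, such as Kdr, at 104, 146 and 129 FPKM in mpECs and 203, 193 and 205 FPKM in bmECs, and Emcn, at 186, 218 and 224 FPKM against 127, 132 and 118 FPKM.

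Transcripts of receptors were more abundant than those of ligands in every library. The 19 ligands together reached 1.36 to 2.95 FPKM in the mpEC and bmEC libraries, 3.2 to 6.56 FPKM in the Yap1/Taz libraries and 4.46 to 9.54 FPKM in the Lats2 libraries. The 10 Frizzled genes together reached 35.8 to 49.9 FPKM, 32 to 45.5 FPKM and 49.1 to 83.3 FPKM. Fzd4, the receptor that also binds the non-Wnt ligand Norrin, was the most abundant Frizzled gene in all 16 libraries. In the mpEC and bmEC libraries it held 62% to 78.8% of the Frizzled sum, while in the Yap1/Taz libraries it held 28.7% to 39.9%.

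Of the 48 members, 18 had a mean of at least 1 FPKM in at least 1 group. These were 4 of the 19 ligands (Wnt5b, Wnt9a, Wnt10a and Wnt10b), 8 of the 10 Frizzled genes (Fzd1 and Fzd4 to Fzd10), both co-receptors, the ligase Znrf3, and the inhibitors Dkk2, Sfrp1 and Sfrp4. A further 19 members had means between 0.1 and 1 FPKM in the group where they were highest, namely Wnt2, Wnt4, Wnt5a, Wnt6, Wnt7b, Wnt9b, Wnt11, Fzd2, Fzd3, Rspo1, Rspo2, Rspo3, Lgr4, Lgr5, Sfrp2, Sfrp5, Dkk1, Dkk3 and Axin2. The other 11 stayed at 0.1 FPKM or less in every group, and 4 of them, Wnt1, Wnt3a, Wnt8b and Dkk4, were listed at 0 in all 16 libraries. No R-spondin reached a mean of 1 FPKM in any group.

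**Figure D1:**
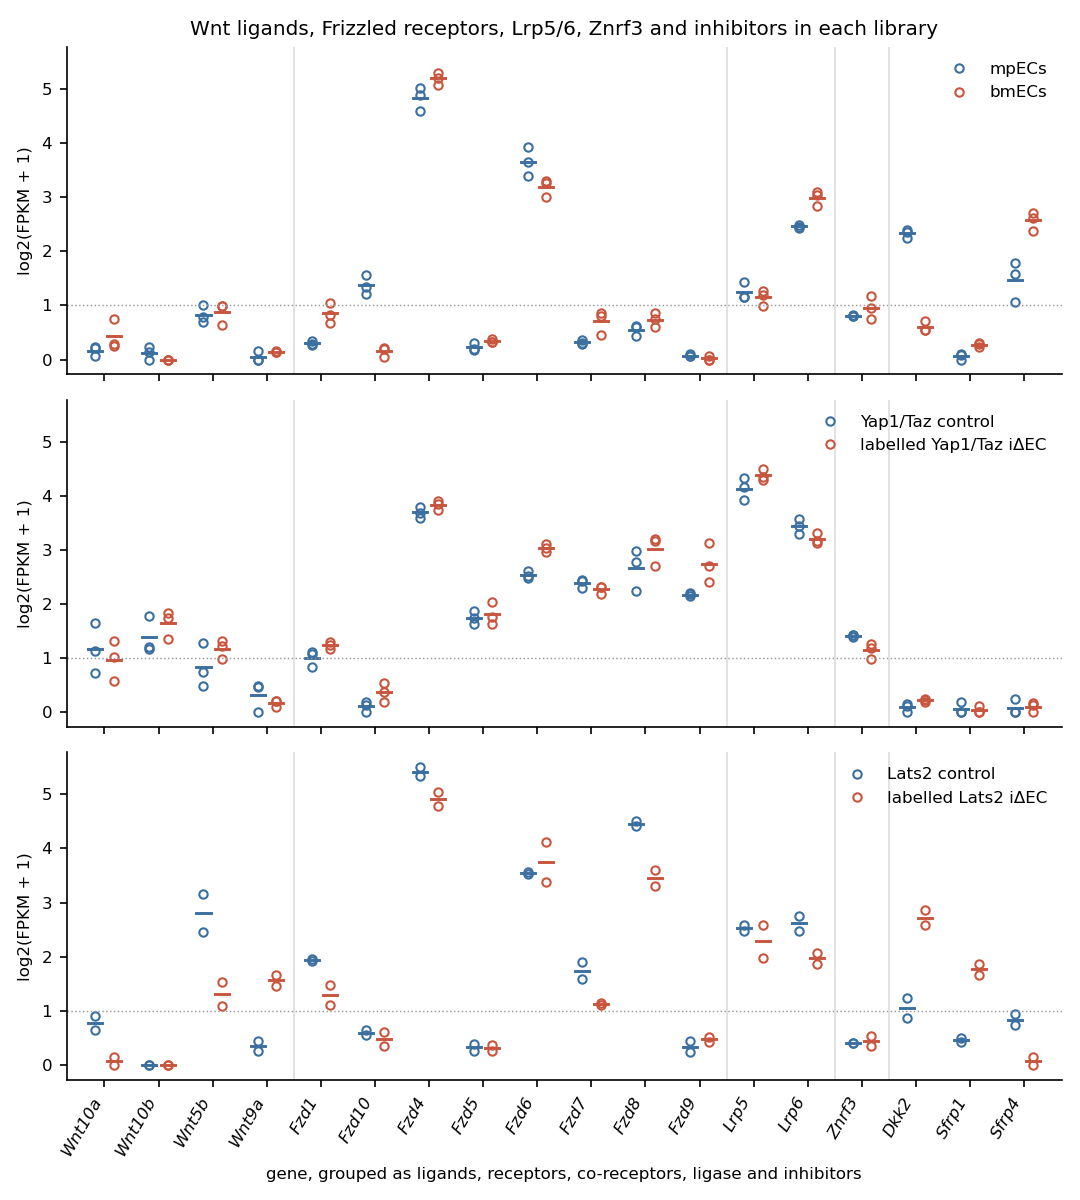
FPKM of the 18 members with a mean of at least 1 FPKM in a group, as log2(FPKM + 1), with 1 panel per comparison, 1 circle per library, a line at each group mean, groups in separate colors and a dotted line at 1 FPKM. Fzd4 is the highest Frizzled gene in each of the 16 libraries.

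In the first comparison, ECs of the metaphysis and the marrow differed in inhibitors and in a co-receptor. Dkk2, which blocks Lrp5 and Lrp6, was the more abundant inhibitor of mpECs. Sfrp4, which binds Wnt ligands, and the co-receptor Lrp6 were higher in bmECs. Of the 48 members, 6 passed the filter and were tested, and 2 of these were higher in bmECs, where 13% of all 11422 tested genes were higher. The 1 lower member was Dkk2, against 10.5% of all tested genes. Dkk2 passed the filter only through its level in mpECs. The filter thus set its direction in advance and favored a difference, and these counts support nothing about the set. The median log2 fold change was 0.13 over the 6 members and -0.00068 over all genes tested.

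Dkk2 (GRCm38, chromosome 3, 132085292 to 132180304) was at 3.77, 4.26 and 4.1 FPKM in mpECs and at 0.461, 0.458 and 0.644 FPKM in bmECs. Every mpEC library lay above every bmEC library, and the mean was 7.76 times that of bmECs. On the log2 scale the level fell by 1.73 (SE 0.12, limma adjusted p = 8.07e-05). The values rest on 147 to 172 recovered reads in mpECs and 14 to 28 in bmECs. Sfrp4 (chromosome 13, 19623104 to 19632994) was at 2.44, 1.08 and 1.99 FPKM in mpECs and at 5.12, 4.21 and 5.56 FPKM in bmECs. All bmEC libraries were higher, with a log2 fold change of 1.10 (SE 0.20, limma adjusted p = 0.00579).

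Lrp6 (chromosome 6, 134446476 to 134566965) was at 4.39, 4.49 and 4.61 FPKM in mpECs and at 7.24, 7.55 and 6.14 FPKM in bmECs. Again the groups did not overlap (log2 fold change 0.53, SE 0.11, limma adjusted p = 0.00941). Its relative Lrp5 was lower in both regions, at 1.23, 1.69 and 1.24 FPKM against 0.986, 1.28 and 1.41 FPKM, and the groups overlapped (log2 fold change -0.10, limma adjusted p = 0.676).

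Among the receptors, Fzd4 was at 23.1, 31.5 and 28.7 FPKM in mpECs and at 32.8, 38.4 and 36 FPKM in bmECs. Fzd6, a receptor linked mainly to planar cell polarity, was at 9.48, 11.5 and 14.2 FPKM in mpECs and at 8.85, 8.57 and 7.05 FPKM in bmECs. The libraries of each gene separated by region, in opposite directions, but neither passed the test (log2 fold changes 0.36 and -0.47, limma adjusted p = 0.0724 and 0.0622). Fzd4 passed without mpEC replicate 2 (limma adjusted p = 0.046) and with the replicate number as a block (0.0204), with a range over alternatives of 0.0204 to 0.199. Without mpEC replicate 1 Fzd6 passed (limma adjusted p = 0.0242, range 0.0242 to 0.18).

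Several members under the filter also differed between the regions, all at low levels. Fzd10 was at 1.52, 1.31 and 1.96 FPKM in mpECs and at 0.163, 0.142 and 0.0284 FPKM in bmECs, so that the mpEC mean was 14.4 times that of bmECs. Fzd1 was at 0.222, 0.275 and 0.212 FPKM in mpECs and at 0.778, 1.06 and 0.602 FPKM in bmECs. Wnt2, a ligand known to be made by liver endothelium, was at 0.0718, 0.0444 and 0 FPKM in mpECs and at 0.701, 0.234 and 0.641 FPKM in bmECs, on at most 17 reads in a library. For each of these the groups did not overlap. When the filter was set at a mean of 0.1 FPKM, 23 members were tested and these 3 passed as well, where 16.3% of all 16770 tested genes passed, Fzd10 with a log2 fold change of -1.22 (limma adjusted p = 0.00125), Fzd1 with 0.55 (0.0269) and Wnt2 with 0.54 (0.0446). Wnt2 came over that filter only through its level in bmECs, so the filter set its direction in advance and favored a difference.

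Of the other named members, Wnt5b was at 0.61, 0.718 and 1.01 FPKM in mpECs and at 0.549, 0.996 and 0.992 FPKM in bmECs. Znrf3 was at 0.748, 0.762 and 0.744 FPKM against 0.924, 1.25 and 0.678 FPKM. Neither gene separated the regions. Fzd5, Fzd7, Fzd8, Fzd9, Wnt9a, Wnt10a, Wnt10b and Sfrp1 stayed under 1 FPKM in all 6 libraries. Axin2, a target gene that rises with canonical signaling in many tissues, had 2, 7 and 4 recovered reads in mpECs and was listed at 0 in bmECs. The same held for Dkk1, with 3, 2 and 3 reads in mpECs. Of the 48 members, 6 were listed at 0 in all libraries of this comparison.

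Markers of bone and cartilage cells were higher in the mpEC libraries, as were Dkk2 and Fzd10. The summed level of 12 osteoblast and osteocyte markers, most abundantly Bglap, was 763, 401 and 152 FPKM in mpECs and 45.8, 55.5 and 43 FPKM in bmECs, and 5 of 7 tested markers fell, of which Col1a1 and Dmp1 passed the filter only through mpECs. In bmECs most of the sum was Ibsp, at 38.8, 46.8 and 38.4 FPKM, which overlapped its 106, 40.6 and 32.8 FPKM in mpECs, while Bglap was at 322, 185 and 49.2 FPKM in mpECs and at 2.95, 2.91 and 0.962 FPKM in bmECs. Of 10 chondrocyte markers, most abundantly Col2a1, 5 were tested and all 5 fell. They passed the filter only through mpECs, which set this direction in advance and favored a difference. The sum of the list was 29.2, 29.2 and 26.7 FPKM in mpECs and 0.141, 0.378 and 0.113 FPKM in bmECs. Col2a1 itself was listed at 0 in every bmEC library.

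Of 8 marrow stromal markers, most abundantly Cxcl12, 2 rose and 1 fell among 5 tested. The sums overlapped, at 65.5, 61 and 79.4 FPKM in mpECs and 52.3, 86.8 and 66.8 FPKM in bmECs. Lepr rose from a mean of 2.95 FPKM in mpECs to 13.3 FPKM in bmECs (limma adjusted p = 5.07e-05). Adipoq rose from 6.41 to 19.3 FPKM (limma adjusted p = 0.00278), and Kitl fell from 32.1 to 10.6 FPKM (limma adjusted p = 0.00961). Lck was the 1 tested gene of 6 T cell markers and was higher in bmECs, with sums of the list at 12.3, 11.5 and 7.6 FPKM against 26.9, 24.1 and 21 FPKM, and Cd8a was listed at 0 in every mpEC library. The sum followed Lck, at 9.28, 9.79 and 5.34 FPKM against 25.8, 21.5 and 19.2 FPKM, while Cd3e was lower in bmECs, at 0.62, 0.489 and 0.502 FPKM against 0.169, 0.442 and 0.177 FPKM, and Cd3d overlapped. Among 7 B cell markers, most abundantly Cd79a, 1 of 7 tested fell, and the sums were 298, 163 and 148 FPKM against 165, 126 and 139 FPKM. No tested gene passed among the markers of pericytes, neutrophils, macrophages, megakaryocytes and erythroid cells. The neutrophil sum, most abundantly S100a8, was 11603 to 27725 FPKM in mpECs and 9430 to 13844 FPKM in bmECs. The erythroid sum, led by Hbb-bs, was 17651 to 32865 FPKM in mpECs and 27416 to 37700 FPKM in bmECs. In bulk libraries fewer cells of a type and less RNA per cell cannot be told apart, and the part of these other cells in the Wnt differences was not tested.

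**Figure D2:**
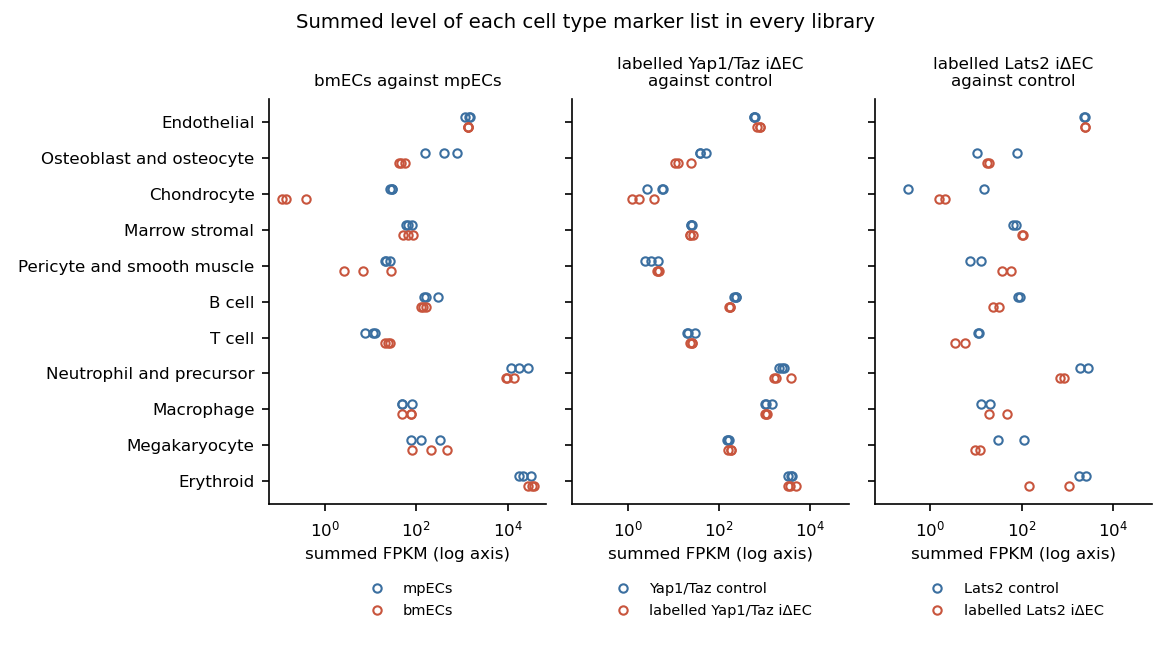
Summed FPKM of the marker lists of each cell type in each library, 1 point per library, on a log axis. The chondrocyte sum is 26.7 to 29.2 FPKM in mpECs and 0.113 to 0.378 FPKM in bmECs.

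The other genes of the pathway were taken from a list of 54. In the first comparison 29 were tested, of which 3 rose in bmECs, where 13% of all tested genes rose, and 6 fell, where 10.5% fell. Cthrc1, a secreted protein that promotes Wnt signaling in planar cell polarity, was at 36, 28.4 and 32.7 FPKM in mpECs and at 2.55, 2.21 and 1.44 FPKM in bmECs (log2 fold change -3.46, limma adjusted p = 1.71e-05). The inhibitor Wif1, which binds Wnt ligands, was at 5.74, 2.15 and 2.21 FPKM in mpECs and at 0, 0.741 and 0.525 FPKM in bmECs (-1.56, limma adjusted p = 0.0121). Both genes were lower in every bmEC library, and Wif1 passed the filter only through its level in mpECs. Inside the cell, Ctnnb1, which encodes β-catenin, was at 71.5, 88.5 and 86.7 FPKM in mpECs and at 50.8, 57.9 and 50.1 FPKM in bmECs (-0.62, limma adjusted p = 0.00473).

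The transcription factors that partner with β-catenin moved in different directions. Lef1 was at 2.77, 1.96 and 2.44 FPKM in mpECs and at 1.26, 1.03 and 1.36 FPKM in bmECs (-0.61, limma adjusted p = 0.0185). Tcf7l1, which mostly represses Wnt targets, was at 14.9, 15.5 and 14.6 FPKM in mpECs and at 25.2, 25.2 and 27.3 FPKM in bmECs (0.75, limma adjusted p = 0.000508). Tcf7l2, named here after its values were seen, was at 14.6, 17.8 and 15.9 FPKM against 22.2, 21.2 and 19.8 FPKM and also rose (0.37, limma adjusted p = 0.0303). The planar polarity gene Prickle1 rose, with a log2 fold change of 0.52 (limma adjusted p = 0.0266), whereas Ptk7, a pseudokinase receptor of that pathway, fell by 0.66 and Gpr124, a co-receptor for Wnt7 ligands, fell by 0.68 (limma adjusted p = 0.00731 and 0.0306). Gpr124 passed the filter only through its level in mpECs. Leaving out single libraries ended the calls of Gpr124 (all but mpEC replicate 1 and bmEC replicate 3), Lef1 (mpEC replicate 1 or 3, bmEC replicate 2), Prickle1 (mpEC replicate 1 or 3, bmEC replicate 2 or 3) and Tcf7l2 (mpEC replicate 1 or 3, bmEC replicate 1 or 2). With no filter Gpr124 and Prickle1 did not pass either (adjusted p = 0.0734 and 0.0608). Over all alternatives the adjusted p-values of Gpr124, Lef1 and Prickle1 ranged from 0.0132 to 0.097, from 0.00622 to 0.0652 and from 0.0195 to 0.0901.

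**Figure D3:**
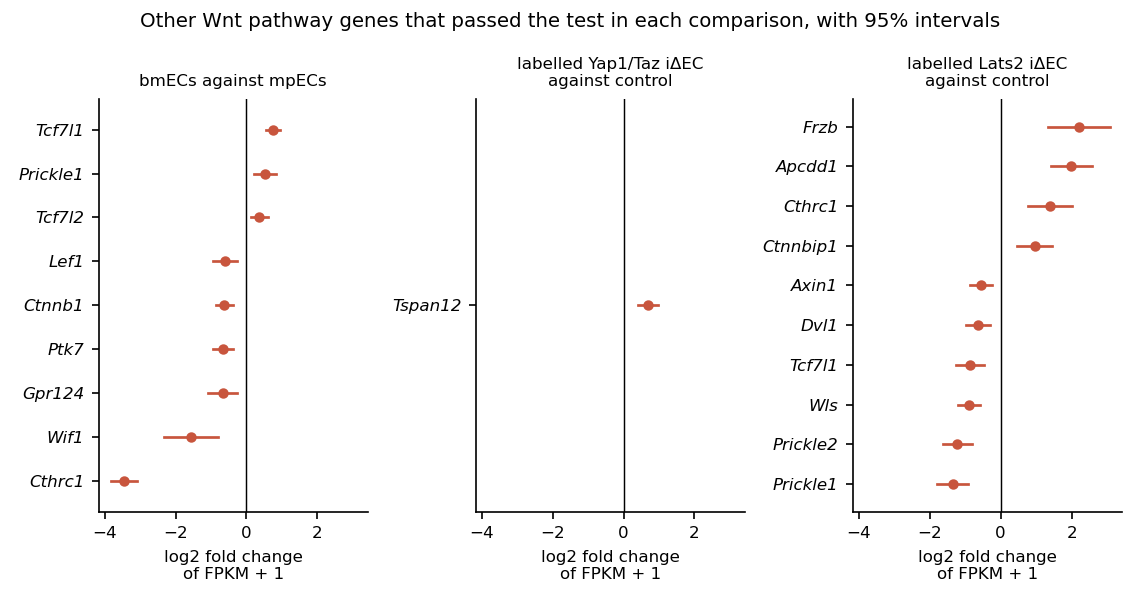
Log2 fold changes with 95% confidence intervals of the other Wnt pathway genes that passed the test in each comparison, on the log2(FPKM + 1) scale. Cthrc1 is the lowest in bmECs at -3.46, and it rises by 1.39 in the libraries labelled Lats2 iΔEC.

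The second comparison set the libraries labelled Yap1/Taz iΔEC against their controls. No member passed the test, and the nearest were the receptors Fzd6 and Fzd9, each higher in all 3 libraries labelled Yap1/Taz iΔEC. Of the 13 members tested, 0 passed in limma, where 1.31% of all 11320 tested genes did. Fzd6 and Fzd9 had an unadjusted p under 0.05, and limma-voom on recovered reads passed 1 member, Fzd6, and 3.41% of all genes tested. The median log2 fold change was 0.22 over the 13 members and -0.0047 over all genes tested.

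Control replicate 1 and the library labelled Yap1/Taz iΔEC replicate 1 were the least like the others of their groups. Across genes, control replicate 1 correlated with the other controls at 0.9768 and 0.9726, and these with each other at 0.9856. The library labelled Yap1/Taz iΔEC replicate 1 correlated at 0.9835 and 0.9829 with the others of its group, and these with each other at 0.9915. Genes are not independent replicates, and this pair was picked after the data were seen. Without both libraries, 2 members passed, Fzd6 and Fzd9, and 720 genes of all tested in place of 148. Leaving out 1 library at a time, 0 members passed, and the genes that passed numbered 114, 20 and 14 without control replicates 1, 2 and 3 and 293, 1 and 1 without the libraries labelled Yap1/Taz iΔEC replicates 1, 2 and 3.

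Fzd6 was at 5.1, 4.71 and 4.57 FPKM in the controls and at 6.79, 7.2 and 7.62 FPKM in the libraries labelled Yap1/Taz iΔEC. The groups were apart, with a log2 fold change of 0.50 (SE 0.11, limma adjusted p = 0.0642). Over the alternatives its adjusted p ranged from 0.0352 to 0.252. Fzd9 was at 3.58, 3.42 and 3.52 FPKM in the controls and at 4.3, 7.76 and 5.53 FPKM in the others. Here too there was no overlap, though the libraries labelled Yap1/Taz iΔEC were spread widely (log2 fold change 0.57, SE 0.17, limma adjusted p = 0.128). A noncoding gene overlaps Fzd6 on the other strand, and as it is not stated whether the counting used strand, its reads cannot be told apart from those of Fzd6.

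The other tested receptors had adjusted p-values of 0.386 or more in limma. Fzd8 was at 6.86, 5.86 and 3.72 FPKM in the controls and at 5.5, 7.97 and 8.21 FPKM in the libraries labelled Yap1/Taz iΔEC. Fzd4 was at 11.1, 11.9 and 12.8 FPKM against 13.4, 13.9 and 12.3 FPKM. For both genes the groups overlapped. Fzd7 was at 4.39, 4.42 and 3.9 FPKM against 3.52, 3.99 and 3.96 FPKM, and Fzd5 was at 2.35, 2.67 and 2.08 FPKM against 2.08, 2.38 and 3.11 FPKM, again with overlap. Fzd1 was at 1.16, 0.797 and 1.11 FPKM in the controls and 1.25 to 1.45 FPKM in the others, a narrow separation of the groups (limma adjusted p = 0.512).

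The co-receptors and the ligase showed small differences. Lrp5 was at 14.1, 19 and 16.9 FPKM in the controls and at 19.3, 18.6 and 21.4 FPKM in the libraries labelled Yap1/Taz iΔEC (log2 fold change 0.24, limma adjusted p = 0.342). Lrp6 was at 9.91, 10.9 and 8.8 FPKM against 7.96, 7.78 and 8.92 FPKM (-0.24, limma adjusted p = 0.321). Each pair of groups overlapped. Znrf3 was at 1.68, 1.62 and 1.7 FPKM in the controls and at 0.977, 1.41 and 1.27 FPKM in the others, where it was lower in each library without passing the test (-0.27, limma adjusted p = 0.403).

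Among the ligands, 3 were tested. Wnt10a was at 2.13, 1.18 and 0.655 FPKM in the controls and at 1.04, 0.485 and 1.5 FPKM in the libraries labelled Yap1/Taz iΔEC. Wnt10b was at 2.44, 1.31 and 1.25 FPKM against 1.56, 2.35 and 2.56 FPKM, and Wnt5b at 0.397, 1.42 and 0.67 FPKM against 0.968, 1.48 and 1.33 FPKM. The groups overlapped for these ligands, and Wnt5b passed the filter only through the libraries labelled Yap1/Taz iΔEC. Under the filter, Wnt9a was at 0.38, 0.393 and 0 FPKM against 0.0643, 0.154 and 0.159 FPKM. Lgr4 was at 1.54, 0.913 and 0.384 FPKM in the controls and 0.598 to 0.814 FPKM in the others. Axin2 stood between 0.16 and 0.311 FPKM in all 6 libraries. No Sfrp or Dkk gene exceeded 0.377 FPKM in a library, Dkk2 reached 0.185 FPKM at most, and 7 members were listed at 0 throughout.

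Among the other genes of the pathway, 32 of 54 were tested and 1 rose, where 0.883% of all tested genes rose. This was Tspan12, a membrane protein that aids Norrin and Fzd4 signaling, at 7.94, 7.91 and 6.4 FPKM in the controls and at 11.4, 14.3 and 12 FPKM in the libraries labelled Yap1/Taz iΔEC. All 3 of the latter were higher (log2 fold change 0.69, SE 0.13, limma adjusted p = 0.0406). Its call was lost without control replicate 2, control replicate 3 or the libraries labelled Yap1/Taz iΔEC replicate 2 or 3, with adjusted p-values from 0.0828 to 0.209 in these fits. It was also lost with a filter at 0.1 FPKM (0.0528), with no filter (0.0954) and with the replicate number as a block (0.074), within 0.0167 to 0.209 over all alternatives.

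Markers of other cell types were measured in the same libraries. Of 12 osteoblast and osteocyte markers, 6 were tested and 3 fell, of which Bglap and Bglap2 passed the filter only through the controls, with sums of 38.8, 38.2 and 52.3 FPKM in the controls and 24.6, 10.9 and 12.8 FPKM in the libraries labelled Yap1/Taz iΔEC. Col1a1 was the most abundant and Dmp1 and Mepe were listed at 0 throughout. Among 5 megakaryocyte markers, most abundantly Pf4, 1 rose, and the sums were 155, 147 and 166 FPKM against 161, 184 and 183 FPKM. No tested gene passed in the other lists, though some of their sums separated the groups. The endothelial sum, most abundantly Cdh5, was 609, 598 and 596 FPKM in the controls and 689, 783 and 807 FPKM in the libraries labelled Yap1/Taz iΔEC, with a median log2 fold change of 0.292 over its 10 genes. The B cell sum, most abundantly Cd79b, was 238, 236 and 209 FPKM against 174, 165 and 172 FPKM. The macrophage sum, most abundantly C1qa, was 1040 to 1447 FPKM in the controls and 1034 to 1139 FPKM in the others. The library labelled Yap1/Taz iΔEC replicate 1 had the highest neutrophil and erythroid sums, 3820 and 4901 FPKM. The neutrophil sum was 1735 and 1631 FPKM in replicates 2 and 3 of its group and 2057 to 2700 FPKM in the controls. The erythroid sum was 3277 and 3659 FPKM in those replicates and 3279 to 3963 FPKM in the controls. The part of these shifts in the values of Tspan12, Fzd6, Fzd9 and the members' median was not tested.

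The third comparison set the libraries labelled Lats2 iΔEC against their controls, and ligands, a receptor and inhibitors all differed. In the libraries labelled Lats2 iΔEC the inhibitors Dkk2 and Sfrp1 and the ligand Wnt9a were higher than in the controls, and the ligand Wnt5b and the receptor Fzd8 were lower. Of 11 members tested, 3 rose, where 11.8% of all 12453 tested genes rose, and 2 fell, where 9.98% of all tested genes fell. Sfrp1 and Wnt9a passed the filter only through the libraries labelled Lats2 iΔEC. The filter thus set their direction in advance and favored a difference, so the counts support nothing about the set. The median log2 fold change was -0.51 over the 11 members and -0.0033 over all genes tested.

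Dkk2 was at 0.816 and 1.37 FPKM in the controls and at 6.24 and 5 FPKM in the libraries labelled Lats2 iΔEC. It rested on 15 and 30 recovered reads in the controls and on 87 and 92 in the others, without overlap. The log2 fold change was 1.67 (SE 0.23, limma adjusted p = 0.0129). Sfrp1, which like the other Sfrp proteins shares a domain with Frizzled receptors, lies on chromosome 8 from 23411502 to 23449632. It was at 0.414 and 0.346 FPKM in the controls and at 2.18 and 2.66 FPKM in the libraries labelled Lats2 iΔEC. Both of the latter were higher (log2 fold change 1.31, SE 0.24, limma adjusted p = 0.0219). A related inhibitor under the filter, Sfrp4, was at 0.916 and 0.67 FPKM in the controls and at 0 and 0.114 FPKM in the others.

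The ligands Wnt9a and Wnt5b moved in opposite directions. Wnt9a, a ligand with a role in joint formation, lies on chromosome 11 from 59306928 to 59333552 and was at 0.362 and 0.202 FPKM in the controls and at 1.75 and 2.17 FPKM in the libraries labelled Lats2 iΔEC. Both of the latter were higher, on 22 and 36 reads against 6 and 4 (log2 fold change 1.21, SE 0.26, limma adjusted p = 0.0306). Wnt5b, a mostly noncanonical ligand, lies on chromosome 6 from 119432531 to 119544347 and was at 7.88 and 4.5 FPKM in the controls and at 1.9 and 1.14 FPKM in the others. The groups were apart, but the controls differed from each other by more than the others' whole level (log2 fold change -1.49, SE 0.30, limma adjusted p = 0.0276). In the controls Wnt5b held 82.6% and 74.2% of all ligand FPKM, and in the libraries labelled Lats2 iΔEC 40.4% and, at 1.14 of 4.46 FPKM, less than Wnt9a, which held 48.7%. Wnt5b overlaps Fbxl14 on the other strand, so its reads may include some of that gene.

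Fzd8 (chromosome 18, 9212163 to 9218136) was at 20.2 and 21.6 FPKM in the controls and at 11.2 and 8.94 FPKM in the libraries labelled Lats2 iΔEC. It was the second most abundant Frizzled gene of the controls, and its mean there was 2.07 times that of the others. The log2 scale gave -0.99 (SE 0.15, limma adjusted p = 0.016).

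**Figure D4:**
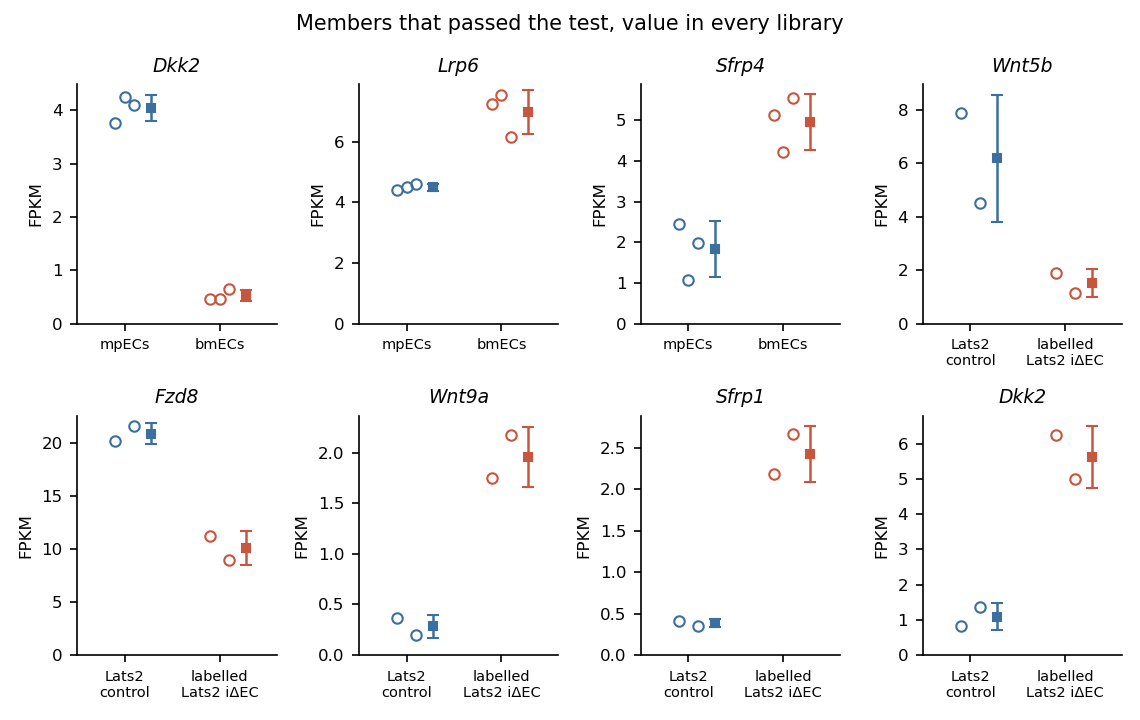
FPKM in every library of the 7 members that passed, 1 panel for each gene and comparison, with 1 circle per library and a square with bars for the mean and SD. Dkk2 lies at 3.77 to 4.26 FPKM in mpECs and at 6.24 and 5 FPKM in the libraries labelled Lats2 iΔEC, above the groups they are plotted against.

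The calls depended on single libraries, and that of Wnt5b also on the filter, without which its adjusted p was 0.0682. Without control replicate 1 or control replicate 2 no gene of 12465 or 12512 tested passed in limma, and the adjusted p-values were then 0.132 or 0.113 for Dkk2, 0.145 or 0.152 for Fzd8, 0.15 or 0.147 for Sfrp1, 0.181 or 0.117 for Wnt5b and 0.16 or 0.17 for Wnt9a. Without the library labelled Lats2 iΔEC replicate 1, Dkk2, Fzd8 and Sfrp1 passed and Wnt5b did not (adjusted p = 0.0583), and without replicate 2 only Dkk2 passed, with Fzd8 at 0.0506 and Wnt5b at 0.117, while Wnt9a in both cases and Sfrp1 in the latter came under the filter and the genes passing in all numbered 2701 and 933. Over all alternatives that tested them the 5 genes kept their directions, and the adjusted p ranged from 0.00541 to 0.132 for Dkk2, 0.00531 to 0.152 for Fzd8, 0.00594 to 0.15 for Sfrp1, 0.0106 to 0.181 for Wnt5b and 0.0106 to 0.17 for Wnt9a.

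The other receptors and co-receptors did not pass the test. Fzd4 was at 39.4 and 44.2 FPKM in the controls and at 31.8 and 26.6 FPKM in the libraries labelled Lats2 iΔEC (log2 fold change -0.51, limma adjusted p = 0.0596). Lrp6 was at 4.58 and 5.73 FPKM against 3.21 and 2.66 FPKM (-0.64, limma adjusted p = 0.0634). Both were lower without overlap, and limma-voom on recovered reads passed both, for 7 members in all, where it passed 26.8% of all genes tested. Fzd4 also passed with a filter at 5 FPKM and with quantile normalization (limma adjusted p = 0.0457 and 0.047). Fzd1 was at 2.8 and 2.88 FPKM against 1.15 and 1.79 FPKM (-0.65, limma adjusted p = 0.0947), and Fzd7 was at 2.72 and 2 FPKM against 1.21 and 1.17 FPKM (-0.61, limma adjusted p = 0.112). Fzd6, at 10.5 and 10.9 FPKM against 16.4 and 9.48 FPKM, overlapped, and so did Lrp5, at 4.97 and 4.57 FPKM against 5.01 and 2.95 FPKM.

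Members under the filter included Wnt10a, at 0.57 and 0.885 FPKM in the controls and at 0.107 and 0 FPKM in the libraries labelled Lats2 iΔEC. Wnt10b was listed at 0 in all 4 libraries. Dkk3, a divergent member of its family, was at 0.898 and 0.901 FPKM against 0.789 and 0.359 FPKM. Fzd5, Fzd9, Fzd10 and Znrf3 stayed between 0.175 and 0.563 FPKM. Axin2 was at 0.0365 and 0.0305 FPKM in the controls and at 0 and 0.109 FPKM in the others, on no more than 3 reads. The summed R-spondin level was 0.492 FPKM at most, and 10 of the 48 members were listed at 0 throughout.

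**Figure D5:**
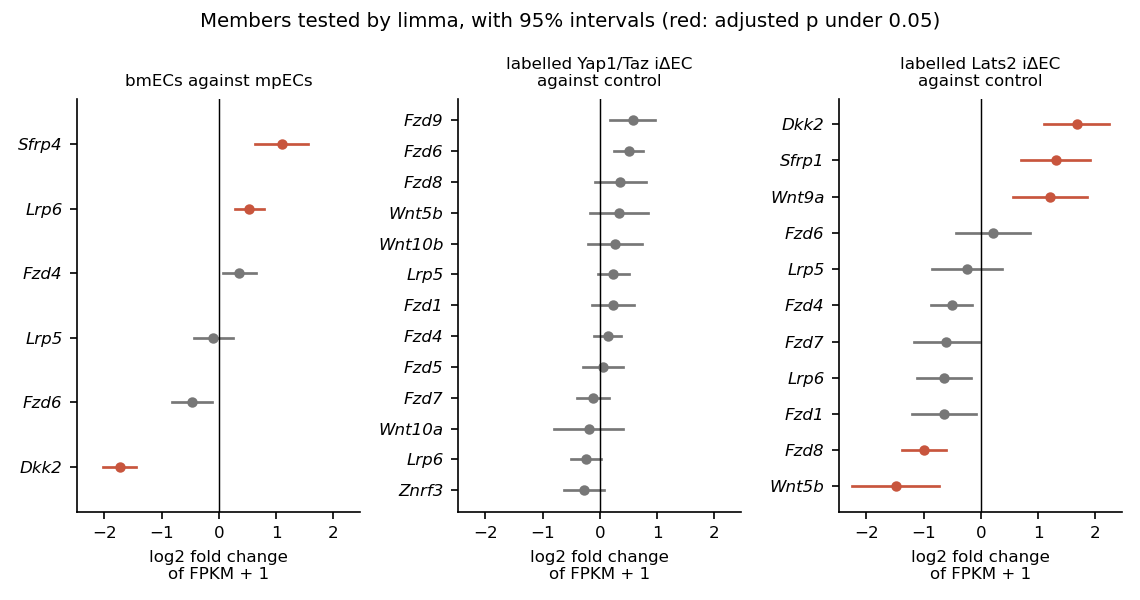
Log2 fold changes with 95% confidence intervals of the members tested in each comparison, on the log2(FPKM + 1) scale, red for those that passed the test and gray for the others. In the libraries labelled Lats2 iΔEC they run from -1.49 for Wnt5b to 1.67 for Dkk2, and in those labelled Yap1/Taz iΔEC from -0.27 for Znrf3 to 0.57 for Fzd9.

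The promoters of the members that passed are shown because the Hippo pathway acts on transcription. For 3 of the 7 such members, windows from the RefSeq promoters (GRCm38.p6) are printed, with 250 bases before to 50 after a start site, in 5 windows. Dkk2 is at chr3:132085042-132085341 on the plus strand and Wnt9a at chr11:59306680-59306979 on the plus strand. Wnt5b has windows at chr6:119449337-119449636, chr6:119467162-119467461 and chr6:119544298-119544597, all on the minus strand. Capitals mark the motifs searched on both strands, which were GGAATG, the core bound by TEAD factors, CTTTGAT and CTTTGAA, cores bound by TCF and LEF factors, and ACGTG, the core bound by HIF.
Dkk2: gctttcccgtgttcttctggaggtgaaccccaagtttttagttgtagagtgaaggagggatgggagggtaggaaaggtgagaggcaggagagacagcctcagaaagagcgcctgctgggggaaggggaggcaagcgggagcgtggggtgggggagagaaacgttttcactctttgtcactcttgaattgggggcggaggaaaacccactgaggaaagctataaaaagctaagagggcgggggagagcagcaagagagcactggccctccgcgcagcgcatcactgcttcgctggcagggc
Wnt9a: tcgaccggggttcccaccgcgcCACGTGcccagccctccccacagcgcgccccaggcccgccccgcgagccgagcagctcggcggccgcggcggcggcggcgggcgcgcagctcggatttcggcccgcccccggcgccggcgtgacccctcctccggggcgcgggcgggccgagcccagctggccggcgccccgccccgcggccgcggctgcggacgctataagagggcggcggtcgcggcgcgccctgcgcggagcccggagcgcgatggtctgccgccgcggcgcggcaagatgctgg
Wnt5b, start nearest the 3′ end of the gene: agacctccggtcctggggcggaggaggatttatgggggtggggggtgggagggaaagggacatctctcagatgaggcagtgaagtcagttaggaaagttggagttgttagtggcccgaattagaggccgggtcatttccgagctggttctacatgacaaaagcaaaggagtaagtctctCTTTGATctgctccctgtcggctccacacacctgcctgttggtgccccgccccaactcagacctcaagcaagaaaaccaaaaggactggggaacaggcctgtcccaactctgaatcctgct
Wnt5b, middle start: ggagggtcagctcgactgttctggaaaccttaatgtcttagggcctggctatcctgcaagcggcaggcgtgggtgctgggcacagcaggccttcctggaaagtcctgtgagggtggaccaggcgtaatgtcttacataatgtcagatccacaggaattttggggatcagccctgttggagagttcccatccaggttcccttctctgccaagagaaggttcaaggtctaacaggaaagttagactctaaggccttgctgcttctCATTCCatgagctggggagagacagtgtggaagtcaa
Wnt5b, start at the 5′ end of the gene: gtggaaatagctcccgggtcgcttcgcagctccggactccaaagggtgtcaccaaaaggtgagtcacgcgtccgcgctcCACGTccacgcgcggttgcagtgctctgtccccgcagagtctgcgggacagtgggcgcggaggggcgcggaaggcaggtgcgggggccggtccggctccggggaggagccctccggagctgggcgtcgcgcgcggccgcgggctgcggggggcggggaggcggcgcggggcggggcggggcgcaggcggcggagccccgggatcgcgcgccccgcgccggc

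Among all 32851 promoters of this length, 14.7% hold GGAATG, 3.73% CTTTGAT, 5.14% CTTTGAA and 19.6% ACGTG. The Dkk2 window holds none of these letters. In Wnt9a, ACGTG occurs on both strands in the overlapping run CACGTG, which begins 228 bases before the start site. In Wnt5b, the window nearest the 3′ end has CTTTGAT from -71 to -65, the middle window has GGAATG on the opposite strand from 13 to 18, and the window at the 5′ end has ACGTG on the opposite strand from -171 to -167, all counted from the start site. The Wnt9a window is 83.3% G or C and the one at the 5′ end of Wnt5b 78%, compared with 57.7% for Dkk2 and a median of 52.7% over all promoters. A match is a run of letters and not a measured binding site. Sfrp1, Sfrp4, Lrp6 and Fzd8 are the other members that passed. No window is printed and no motif is reported for them, which does not show that they lack a promoter entry.

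Of the 54 other genes of the pathway, 35 were tested in the third comparison. Of these 4 rose, where 11.8% of all tested genes rose, and 6 fell, where 9.98% fell, and their median log2 fold change was -0.13 against -0.0033 over all genes tested. Frzb, a secreted Wnt antagonist related to the Sfrp proteins, was at 0 and 0.0519 FPKM in the controls and at 2.54 and 5.34 FPKM in the libraries labelled Lats2 iΔEC (log2 fold change 2.21, limma adjusted p = 0.0163). Apcdd1, a membrane inhibitor of Wnt signaling, was at 0.287 and 0.12 FPKM against 4.07 and 3.52 FPKM (1.99, limma adjusted p = 0.0104). Cthrc1 was at 4.75 and 4.77 FPKM against 18.3 and 10.9 FPKM (1.39, limma adjusted p = 0.0217). Frzb and Apcdd1 passed the filter only through the libraries labelled Lats2 iΔEC, which set their direction in advance and favored a difference. Ctnnbip1, which keeps β-catenin from TCF factors, was at 24.1 and 35 FPKM against 54.9 and 60.3 FPKM (0.96, limma adjusted p = 0.0292).

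Of the genes that fell, 4 are described. Wls, the carrier that brings Wnt ligands to the cell surface, was at 50.1 and 44.2 FPKM in the controls and at 24.6 and 24.7 FPKM in the libraries labelled Lats2 iΔEC (log2 fold change -0.91, limma adjusted p = 0.0129). Prickle1 was at 25.4 and 22.1 FPKM against 9.94 and 7.49 FPKM (-1.36, limma adjusted p = 0.0118), and Prickle2 at 6.1 and 6.66 FPKM against 2.33 and 2 FPKM (-1.22, limma adjusted p = 0.0129). Both planar polarity genes were lower in each library. Tcf7l1 was at 41.9 and 40 FPKM against 24.8 and 19.4 FPKM (-0.87, limma adjusted p = 0.0209). As for the members, none passed without control replicate 1 or 2, and 7 and 5 of these 10 passed without the libraries labelled Lats2 iΔEC replicate 1 and 2. Ctnnbip1 passed in none of the 4 fits with a library left out (adjusted p from 0.0799 to 0.166), and without replicate 2 Tcf7l1 did not pass and Frzb came under the filter. With no filter 6 of the 10 passed, and of the genes described Ctnnbip1 and Cthrc1 did not (adjusted p = 0.0616 and 0.0541). Notum and Tnfrsf19, under the main filter, passed with no filter and with a filter at 0.1 FPKM. In these fits 7.01% and 11.8% of all tested genes passed. Notum was at 0.918 and 1.33 FPKM in the controls and at 0.11 and 0 FPKM in the libraries labelled Lats2 iΔEC. Tnfrsf19 was at 1.35 and 1.09 FPKM against 0.0555 and 0.21 FPKM.

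Other cell types also differed in this comparison. Of 7 pericyte and smooth muscle markers, most abundantly Tagln, 3 were tested and all 3 rose, with sums of 7.29 and 13.1 FPKM in the controls and 36.9 and 57.2 FPKM in the libraries labelled Lats2 iΔEC. Among 8 marrow stromal markers, most abundantly Cxcl12, 2 of 7 tested rose, Kitl and Cxcl12. The sums of the list were 63.8 and 74.6 FPKM against 108 and 99.5 FPKM. Adipoq was lower without overlap, at 7.42 and 6.33 FPKM against 3.26 and 0.436 FPKM. So was Foxc1, at 9.27 and 8.55 FPKM against 7.04 and 5.14 FPKM. Neutrophil markers and most B cell markers were lower in the libraries labelled Lats2 iΔEC. The neutrophil sum, most abundantly S100a8, was 2873 and 1918 FPKM in the controls and 843 and 703 FPKM in the others, and 5 of 7 tested genes fell. The B cell sum, most abundantly Cd79a, was 93.7 and 82.9 FPKM against 31.2 and 23.3 FPKM. Of these markers 5 of 6 tested fell, of which Igll1 passed the filter only through the controls. Ebf1 of the B cell list was higher without overlap, at 3.28 and 4.36 FPKM in the controls and 6.25 and 6.75 FPKM in the others.

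In the erythroid list, led by Hbb-bs, 1 of 5 fell, with sums of 2544 and 1827 FPKM in the controls and 1067 and 145 FPKM in the libraries labelled Lats2 iΔEC. For T cells, led by Lck, 1 of 2 tested fell, from sums of 11.6 and 11.3 FPKM to 5.62 and 3.42 FPKM. The T cell sum followed Lck, at 9.26 and 9.3 FPKM against 3.26 and 1.58 FPKM, and Cd3d was lower too. Cd4 was higher, at 0.199 and 0.0834 FPKM against 1.12 and 0.947 FPKM, and Cd3e and Cd3g overlapped. For megakaryocytes, led by Pf4, 1 of 5 fell, from sums of 29.7 and 110 FPKM to 12.1 and 9.45 FPKM. No chondrocyte, macrophage or osteoblast marker passed. The macrophage sum, most abundantly Csf1r, was 20.7 and 12.7 FPKM in the controls and 46.7 and 19.2 FPKM in the others, with a median log2 fold change of 1.26 over its tested genes. Control replicate 1 stood out with an osteoblast sum of 79.4 FPKM and a chondrocyte sum of 14.9 FPKM, compared with 10.5 to 18.9 FPKM and 0.32 to 2.06 FPKM in the other 3 libraries, and Mepe was listed at 0 in all 4. Of 10 endothelial markers, 1 rose and 2 fell. The part of these other cells in the Wnt differences was not tested.

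The makeup of the libraries also differed between the Lats2 groups. The most abundant entry in all 4, Gm23935, was at 6093 and 7629 FPKM in the controls and at 15846 and 26667 FPKM in the libraries labelled Lats2 iΔEC. The 10 most abundant genes held 8.67% and 8.87% of all FPKM in the controls and 12.8% and 16.8% in the others. Across genes, the library labelled Lats2 iΔEC replicate 2 correlated with the controls at 0.8743 and 0.885, and replicate 1 at 0.9176 and 0.9248. With quantile normalization, which gives every library the same distribution of values, the 5 members passed as well. In that fit 2740 genes of all tested passed in place of 2711. The part of these shifts in the Wnt differences was not tested.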

How the data were processed

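RNA of sorted bone ECs was sequenced as paired-end reads from stranded total RNA libraries. Per the methods and the submitters' processing notes, the authors mapped reads with TopHat to GRCm38 (mm10) and counted them per gene with HTSeq (version 0.6.1). Their own tests used DESeq2 on counts, which are not used here. The deposited values are FPKM. The step from counts to FPKM, the gene lengths and the strand setting are not stated. The Yap1/Taz files name no unit, which was taken as FPKM from their values. Samples were grouped by their labels, and no library was left out.

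Each comparison was fitted separately with limma (version 3.58.1, R 4.3.3) on log2(FPKM + 1), with 1 term for the group, empirical Bayes moderation that follows the trend of variance with mean, genes at a mean of at least 1 FPKM, and two-sided p-values adjusted by Benjamini-Hochberg over all genes tested. Python 3.11.15 with numpy 2.4.6, pandas 2.3.3 and matplotlib 3.10.9 made tables and plots. Reads were recovered as FPKM times gene length (GENCODE vM21) and library total. For the reads of single members the length was corrected, where needed, by a factor that made them whole. For Dkk2 this factor was 1.0027. The library total was not given and was fitted so that low values fell on whole reads. Of values at 1 to 20 reads, 66.6% to 73.7% per library lay within 0.05 of a whole read. The fit itself favors this share, so it is no independent check. Counts of reads cover counting error only. No sum of recovered reads is an exact sequencing depth.

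Members with a mean of at least 1 FPKM in a group were named with values, and from the other pathway genes of those that passed at most 8, taken by the size of their log2 fold change. Tcf7l2, Notum and Tnfrsf19 lie outside this rule, as do Dvl1 and Axin1, which are only plotted. The rule for members uses symbols only, but it, the lists and the motifs were chosen with earlier results of these data known. Alternatives were a pseudocount of 0.1, filters at 0.1 and 5 FPKM or none, quantile normalization, the replicate number as a block, an adjusted p under 0.01 with an absolute log2 fold change over 0.5, and each library left out. Limma-voom on recovered reads and the removal of Yap1/Taz control replicate 1 together with the library labelled Yap1/Taz iΔEC replicate 1 were added after the data were seen.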

Additional observations from a re-analysis of the deposited data

How the results depend on the processing

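In mpECs and bmECs, 3 members passed in the main analysis. With filters at 0.1 and 5 FPKM there were 6 and 1, and with no filter 7, as more or fewer low genes were tested. They numbered 3 to 4 with single libraries left out. The pathway genes that passed went from 9 to 4 under the stricter rule (adjusted p under 0.01, absolute log2 fold change over 0.5) and to 5 to 10 with libraries left out, and all genes from 2682 to 1335 under that rule. In the libraries labelled Yap1/Taz iΔEC and their controls, the members that passed went from 0 to 1 in limma-voom on recovered reads and to 0 to 2 with libraries left out. All genes went from 148 to 81 with a filter at 0.1 FPKM, 1 with none, 1 under the stricter rule, 386 in limma-voom and 1 to 720 with libraries left out, and the 1 pathway gene to 0 with a filter at 0.1 FPKM, with none and under the stricter rule and to 0 to 3 with libraries left out. In the Lats2 comparison, the 5 members went to 2 with a filter at 5 FPKM, Fzd8 of the 5 and Fzd4 in addition, 0 under the stricter rule and 0 to 3 with libraries left out. All genes went from 2711 to 1389 with no filter, 257 under the stricter rule and 0 to 2701 with libraries left out, and the 10 pathway genes to 0 and 0 to 7. With 1 library left in a group, it is assumed to vary like the other group. Apart from the filters and the rule itself, the cause of these shifts was not tested.

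Of the members and pathway genes that passed, none followed over the alternatives changed direction, and Tcf7l2, Dvl1 and Axin1 were not followed. Among those that did not pass, Fzd5 (0.058) went to -0.0045 and -0.059 without Yap1/Taz control replicate 3 and the library labelled Yap1/Taz iΔEC replicate 3, within -0.059 to 0.149 over libraries left out. Wnt10a (-0.19) went to 0.0094 without the library labelled Yap1/Taz iΔEC replicate 2, within -0.412 to 0.0094. Fzd6 (0.21) went to -0.154 without the library labelled Lats2 iΔEC replicate 1, within -0.154 to 0.579, and Lrp5 (-0.24) to 0.058 without replicate 2, within -0.547 to 0.058.

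Groups share replicate numbers, but deviations of same-numbered libraries correlated at 0.307, 0.0876 and 0.102 in mpECs and bmECs, -0.175, -0.123 and -0.155 in the Yap1/Taz libraries and 0.0651 in the Lats2 libraries, which leaves unsettled whether the numbers mark pairs. With the number as a block, 4, 0 and 5 members, 3072, 45 and 2655 genes and 11, 0 and 9 pathway genes passed. At this depth, members at a few reads per library could show only large differences.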
